A study of Mus musculus with 12 samples.

Results

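Transcript levels of Foxp3 and of the 5 Ikaros family genes (Ikzf1 to Ikzf5) were followed in regulatory T cells (Tregs) of mice with autoimmune diabetes. The 6 genes were chosen by their symbols, and all 6 of them were listed among the 23361 gene symbols of the deposited expression table. Each of the 4 groups had 3 libraries: Lag3-deficient Tregs from pancreatic islets, Wt Tregs from islets, Lag3-deficient Tregs from non-draining lymph nodes (NDL) and Wt Tregs from NDL. Lag3 encodes an inhibitory receptor on T cells that binds MHC class II. The mouse strain, age and sex, how the cells were sorted, and whether Lag3 was deleted in Tregs alone are details the sources used here do not state, and no treatment is named. The diabetes model is shared by all 4 groups. The column headers repeat the number 1 within each group, so the libraries are called 1a, 2 and 1b here, and 3 values given for a group follow that order. The labels do not say whether these libraries derive from separate animals. The p-values therefore set group differences against the scatter of these samples only, and that scatter may be technical.

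Foxp3 is a forkhead transcription factor that is required for the development and the suppressive function of Tregs, and its loss causes fatal autoimmunity. Ikaros family proteins bind DNA through zinc fingers near the N-terminus and pair with each other through a second zinc finger region near the C-terminus. Helios (Ikzf2) is a marker of thymus-derived and activated Tregs, Eos (Ikzf4) is a partner of Foxp3 in gene silencing, Ikaros (Ikzf1) and Aiolos (Ikzf3) are regulators of lymphocyte development and cytokine genes, and Pegasus (Ikzf5) is a more distant relative.

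To compare family members, part of the coding sequence for the C-terminal zinc finger region is given for 3 of them, sense strand, 5′ to 3′. It is 84 bases of the longest annotated coding sequence (GENCODE annotation of GRCm38). This window of Ikzf1 was chosen for the most bases shared with the other family members, each at its best match. It thus shows the family where it is most alike, and identity over the rest of the coding sequence is not given. Capitals mark bases that differ from Ikzf1 at the same position.
Ikzf1: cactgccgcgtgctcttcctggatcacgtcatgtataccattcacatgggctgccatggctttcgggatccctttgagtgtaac
Ikzf2: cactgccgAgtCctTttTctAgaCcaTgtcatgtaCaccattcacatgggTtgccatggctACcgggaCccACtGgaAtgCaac
Ikzf5: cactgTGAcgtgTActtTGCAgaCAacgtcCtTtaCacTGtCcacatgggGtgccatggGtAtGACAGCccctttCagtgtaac

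Ikzf2 shared 67 of the 84 bases with Ikzf1 and Ikzf5 shared 57. The longest run of identical bases in this stretch was 14 in Ikzf2 and 8 in Ikzf5. These 3 genes say nothing of how alike the other members are in this stretch. Over all annotated transcripts, 2 of 15 pairs of the 6 genes shared any run of 25 bases (Ikzf1 with Ikzf3, and Ikzf2 with Ikzf4), and 0 of 15 shared a run of 50 bases.

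The whole-table facts that touch these genes are few. Column totals lay between 15232498 and 15370098 rescaled counts, so the sequencing depth cannot be read from them, and levels are given in CPM, counts scaled to the library total and then by trimmed means. Before the second step 1 CPM corresponded to about 15.3 rescaled counts, and the factors of that step lay between 0.841 and 1.34. The depth before rescaling could be resolved for 2 libraries, 5.5 M reads in Lag3-deficient islet 2 and 9.73 M in Wt NDL 2, and is unknown for the others. The ribosomal RNA gene Rn45s held 1.26 to 1.68% of the signal in the 4 libraries 1b, 1 in each group, against 0.149 to 0.571% in the other 8. The part of that gap in the results was not tested. Of 7 T cell and Treg markers (Cd3e, Cd3g, Cd4, Foxp3, Il2ra, Ctla4 and Tnfrsf18), every one was above 0 in all 12 libraries. Lag3 itself was listed at 1, 0 and 0 rescaled counts in Lag3-deficient islet libraries, against 40, 48 and 120 in Wt islet libraries. In NDL it was listed at 1, 0 and 3 in Lag3-deficient libraries and at 2, 5 and 6 in Wt libraries, so the genotype label could be checked in islets and hardly in NDL. The islet difference of Lag3 was -2.34 ± 0.63 on the log2(CPM + 1) scale (SE, 3 against 3 libraries, limma adjusted p = 0.863, not past the threshold).

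Foxp3 was the most abundant of the 6 transcripts per length, and Pegasus and Eos were the least. Per kilobase of exon, and averaged over all 12 libraries, Foxp3 stood at 98.6 ± 28.6 CPM, Helios at 55.0 ± 10.4, Ikaros at 33.3 ± 14.1 and Aiolos at 11.04 ± 7.12 (SD, n = 12). Eos stood at 5.70 ± 5.11 and Pegasus at 5.07 ± 3.94 CPM per kilobase, and these did not differ beyond their spread. Foxp3 held the first place in 10 of 12 libraries and the second in the other two, where Helios was first. Helios held the second place in 8 libraries and Ikaros the third in 9. With the length of the longest coding transcript in place of the exon union, Aiolos stood at 26.4 and Ikaros at 37.3 CPM per kilobase over all libraries, and the order of the 6 genes was the same. In Lag3-deficient islets the mean of Aiolos then lay at 39.4 ± 21.0, against 27.5 ± 11.4 for Ikaros (SD, n = 3), a difference within their spread.

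**Figure D1:**
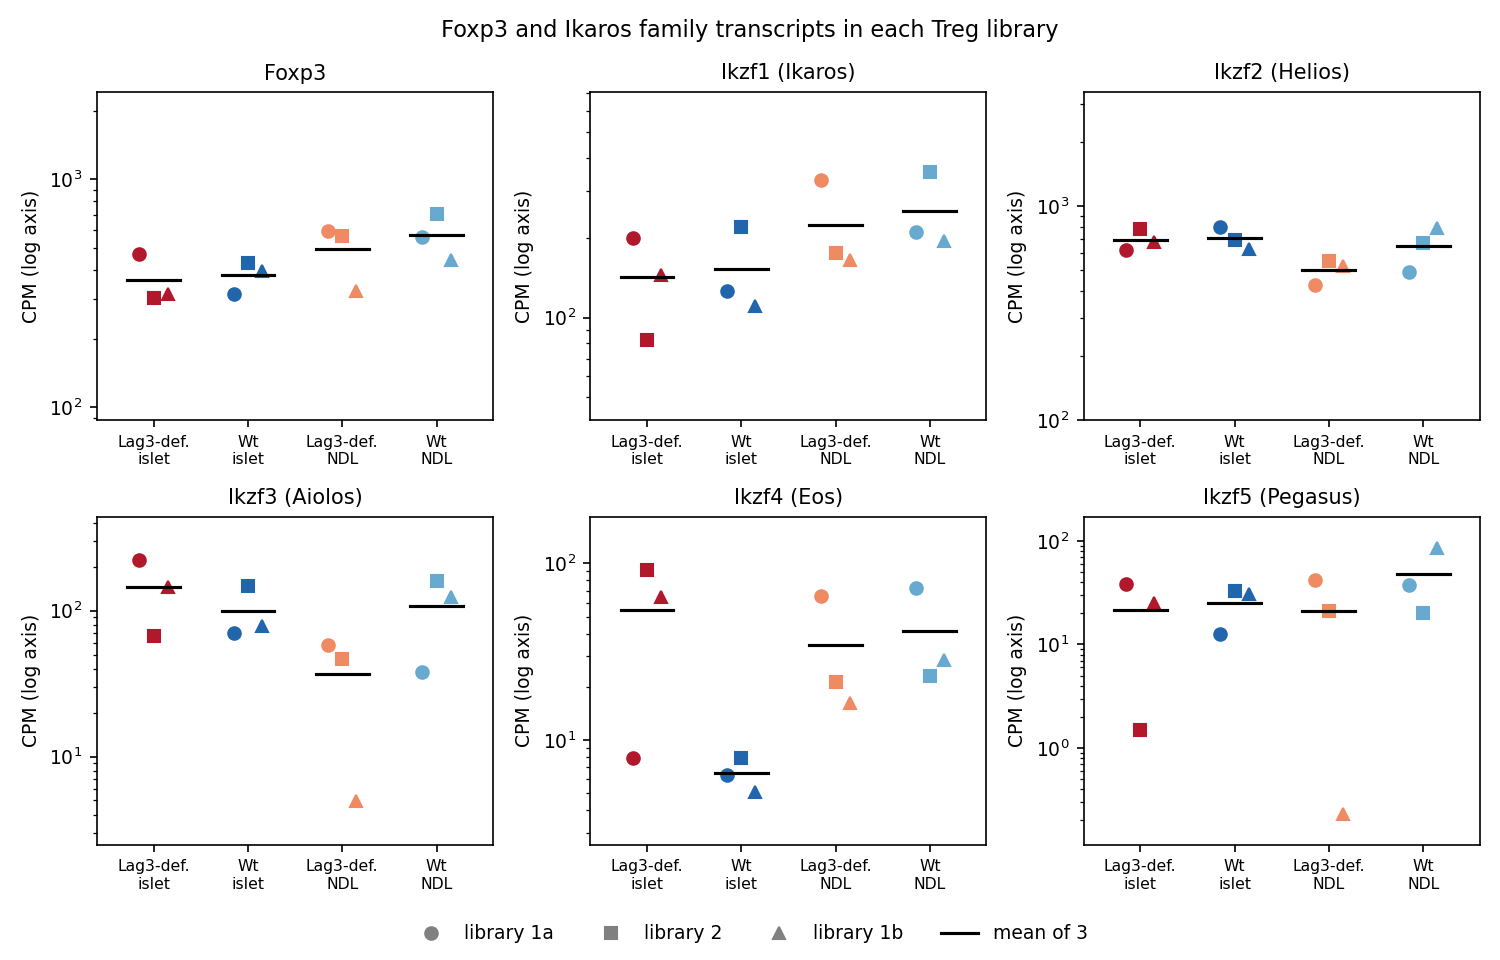
CPM (log axis, scaled by trimmed means) of each gene in every library, by group; symbols mark libraries 1a, 2 and 1b and the black bar is the mean of the 3 libraries. Eos lies between 5.12 and 7.94 CPM in Wt islets, and 2 of the 3 Lag3-deficient islet libraries lie at 64.1 and 92.0 CPM.

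Foxp3 (chrX:7573644-7595245, plus strand, GRCm38) had 471, 302 and 315 CPM in Lag3-deficient islet libraries, against 314, 429 and 395 CPM in Wt islets. In NDL it had 595, 566 and 323 CPM in Lag3-deficient libraries, against 560, 702 and 443 CPM in Wt libraries. The genotypes overlapped in both tissues, and the 3 Wt islet libraries lay below the 3 Wt NDL libraries. The islet means were 363 ± 94.2 CPM in Lag3-deficient and 379 ± 59.2 CPM in Wt Tregs (SD, n = 3 each). The genotype difference was -0.08 ± 0.37 log2 in islets (SE, 95% interval -0.86 to 0.70), an interval that holds folds between 0.551 and 1.62, and -0.23 in NDL, with folds from 0.499 to 1.47. Between islets and NDL, averaged over both genotypes, the log2 difference was -0.50 ± 0.26 (95% interval -1.05 to 0.05, limma adjusted p = 0.475). Exons of other genes overlap those of Foxp3. On the opposite strand, Ccdc22 covers 12.9% of the Foxp3 exon bases and Ppp1r3f 5.81%. The noncoding Flicr, on the same strand, covers 18.6%. Since the strand setting of the counting is not given, reads shared with Ccdc22 or Ppp1r3f cannot be told apart. For reads shared with Flicr, the strand would not tell them apart. Ccdc22 had 40.8 to 144 CPM in Lag3-deficient and 105 to 179 CPM in Wt islets, and 175 to 399 CPM in Lag3-deficient and 162 to 241 CPM in Wt NDL. In these bulk libraries, fewer cells that express a gene and less of its RNA per cell cannot be told apart.

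Eos had the largest difference between genotypes in islets of the 6 genes. Ikzf4 (chr10:128630843-128645991, minus strand), which encodes it, had 7.94, 92.0 and 64.1 CPM in Lag3-deficient islet libraries. In Wt islets it had 6.37, 7.94 and 5.12 CPM. Lag3-deficient libraries 2 and 1b were high and library 1a stood beside the Wt libraries, at a value that exceeded the highest Wt library only in the fourth digit (7.940 against 7.935 CPM). The group means were 54.7 ± 42.8 CPM in Lag3-deficient and 6.47 ± 1.41 CPM in Wt islets (SD, n = 3 each), and the log2 difference was 2.36 ± 1.05 (SE, 95% interval 0.17 to 4.54, limma adjusted p = 0.884). It was thus not past the threshold over 10868 tested genes, of which 0% were called. Without library 1a of the Lag3-deficient islets the difference was 3.43, and without library 2 it was 1.70. The adjusted p lay between 0.642 and 1 over all alternatives. The value in Lag3-deficient islet 2 corresponded to 444 reads before rescaling.

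In NDL, Ikzf4 had 65.4, 21.4 and 16.2 CPM in Lag3-deficient libraries, against 72.5, 22.9 and 28.3 CPM in Wt libraries. The genotypes overlapped there, with library 1a highest in both (log2 difference -0.33 ± 1.05). All 3 Wt islet libraries lay below all 6 NDL libraries of either genotype, while the Lag3-deficient islet libraries covered the NDL range and went beyond it at both ends. The islet against NDL difference was 0.36 ± 1.05 log2 in Lag3-deficient and -2.33 ± 1.05 in Wt Tregs (95% interval -4.52 to -0.15, limma adjusted p = 0.602 in Wt). The difference between the genotype effects in islets and in NDL was 2.69 ± 1.48 (95% interval -0.40 to 5.78, limma adjusted p = 0.998), so an effect particular to islets was not established by the test.

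Ratios within a library do not depend on how libraries are scaled to each other. Per kilobase, Ikzf4 was at 2.48, 22.9 and 18.2% of Ikzf2 in Lag3-deficient islet libraries, against 1.55, 2.22 and 1.58% in Wt islets. It was at 29.7, 7.48 and 5.97% in Lag3-deficient NDL and at 28.6, 6.59 and 6.90% in Wt NDL. The 3 Wt islet libraries had the lowest Eos to Helios ratios of all 12. Relative to Foxp3, Ikzf4 was at 1.29, 23.3 and 15.5% in Lag3-deficient islets and at 1.55, 1.41 and 0.990% in Wt islets. By this ratio library 1a of the Lag3-deficient islets lay within the Wt range.

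**Figure D2:**
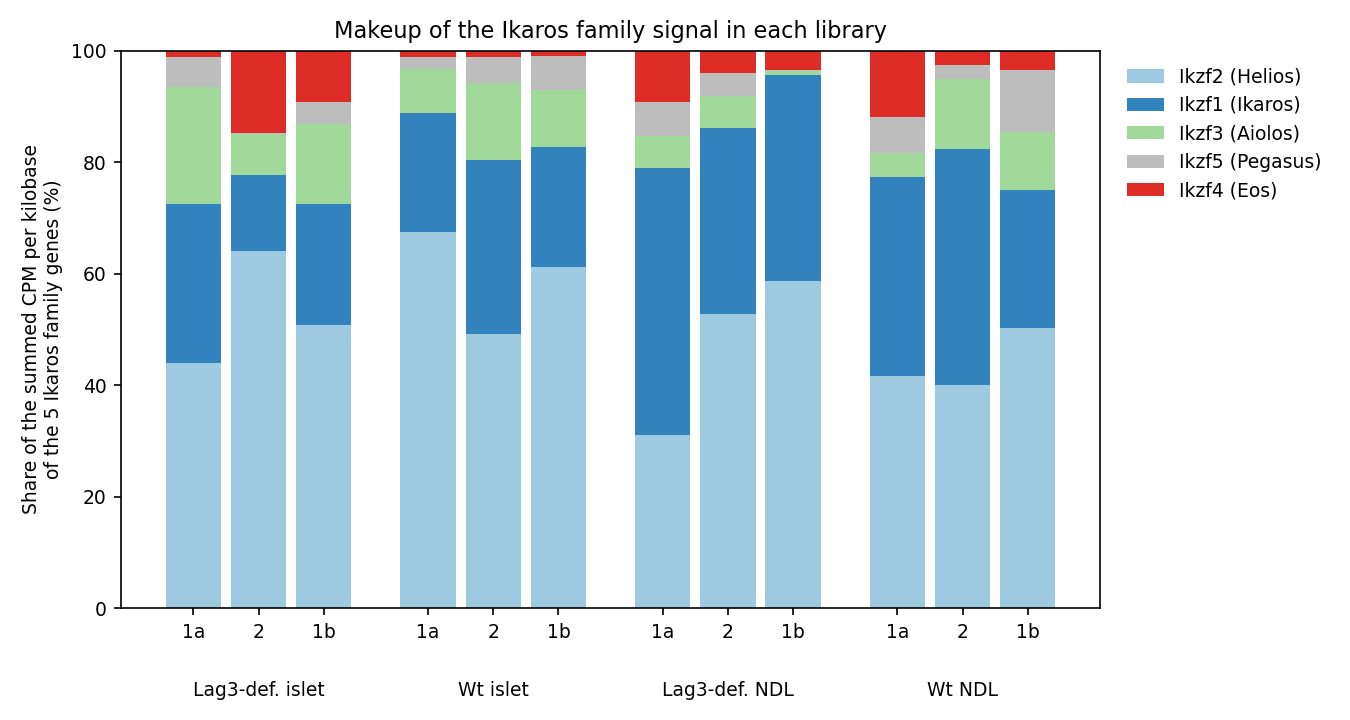
Share of each gene in the summed CPM per kilobase of the 5 Ikaros family genes, in percent, for each library of the 4 groups. Eos makes up 8.35 ± 6.84% in Lag3-deficient and 1.03 ± 0.0633% in Wt islets (SD, n = 3 each), and Helios is the largest part in 10 of 12 libraries.

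Marker lists of other cells were measured in the same libraries. The summed level of the 10 B cell markers was 536, 682 and 237 CPM in Lag3-deficient islet libraries, against 1066, 613 and 452 CPM in Wt islets, and 122 to 235 CPM in Lag3-deficient and 53.0 to 178 CPM in Wt NDL. Pax5, the B cell lineage factor, was at 0 in all 12 libraries. The 14 exocrine pancreas markers summed to 597, 46.0 and 317 CPM in Lag3-deficient islet libraries, against 2910, 177 and 799 CPM in Wt islets, and to at most 1.005 CPM in Lag3-deficient and 4.41 CPM in Wt NDL. The 12 myeloid markers, of which 11 are in the table, summed to 13.9 to 47.3 CPM in Lag3-deficient and 42.2 to 135 CPM in Wt islets, and to 0.195 to 35.2 CPM in Lag3-deficient and 0.440 to 14.2 CPM in Wt NDL. The 9 CD8 and NK markers summed to 91.2 to 431 CPM in Lag3-deficient and 221 to 369 CPM in Wt islets. In NDL these markers summed to 51.6 to 119 CPM in Lag3-deficient and 19.9 to 31.6 CPM in Wt libraries. Most of the highest sums was Nkg7, which reached 429 CPM in Lag3-deficient and 362 CPM in Wt islets. No other marker of that list exceeded 22.1 CPM (Cd8a) in any library. The 10 endocrine markers summed to 3.20 to 35.4 CPM in Lag3-deficient and 9.07 to 212 CPM in Wt islets, and to under 1 CPM in each NDL library. The part of these transcripts in the levels of the Ikaros family was not tested.

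Helios was the steadiest of the 6 genes. Ikzf2 (chr1:69531214-69687245, minus strand) had 620, 779 and 681 CPM in Lag3-deficient islet libraries, against 798, 693 and 628 CPM in Wt islets. In NDL it had 426, 555 and 527 CPM in Lag3-deficient libraries, against 491, 673 and 794 CPM in Wt libraries. The genotypes overlapped in both tissues. Among Lag3-deficient Tregs, the 3 islet libraries lay above the 3 NDL libraries, with a log2 difference of 0.47 (95% interval -0.21 to 1.14, adjusted p = 0.691). The genotype difference was -0.03 ± 0.32 log2 in islets (95% interval -0.70 to 0.65, folds from 0.614 to 1.57) and -0.36 in NDL (-1.03 to 0.32). The residual SD of Ikzf2 within groups was 0.235 log2 units, and 0.34% of the 10868 tested genes had a smaller one. Among the 347 genes within 1 log2 unit of its level, 4.9% had a smaller one.

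**Figure D3:**
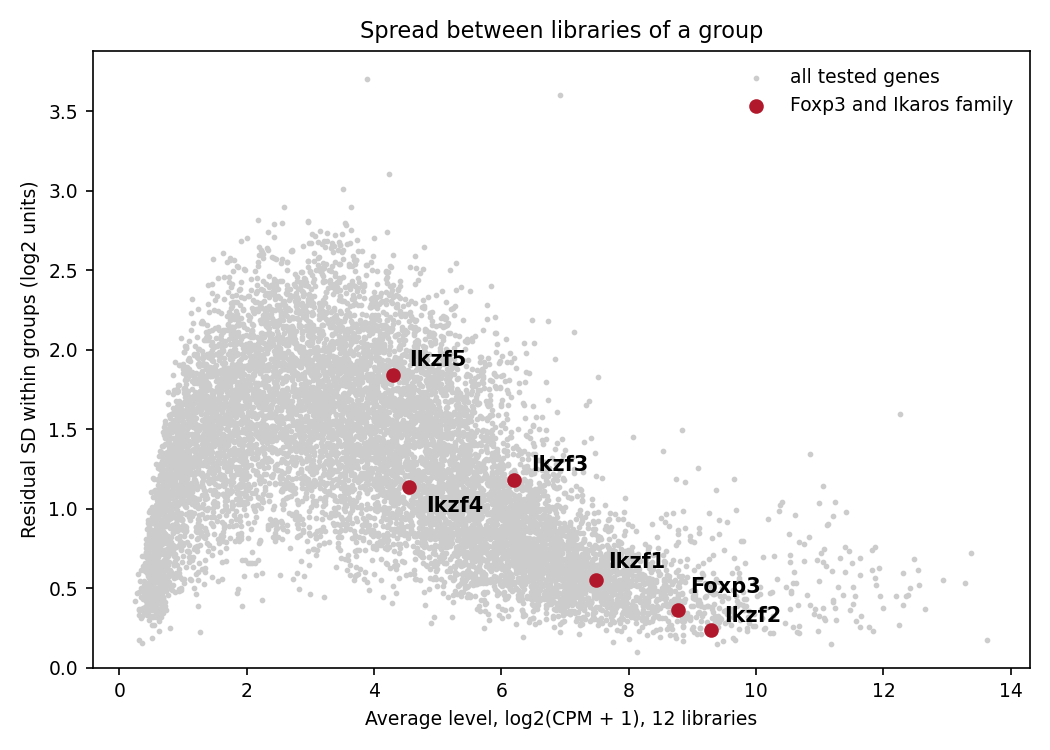
Residual SD within groups against the average log2(CPM + 1) over 12 libraries, for all tested genes (grey) and the 6 named genes (red). Helios and Foxp3, with residual SDs of 0.235 and 0.363 log2 units, lie at the low edge and low side of genes of their level, and Pegasus, at 1.84, lies among the more scattered genes.

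Ikaros had its lower means in islets, as Foxp3 did. Ikzf1 (chr11:11685003-11772926, plus strand) had 200, 82.0 and 145 CPM in Lag3-deficient islet libraries, against 126, 219 and 111 CPM in Wt islets. In NDL it had 329, 175 and 165 CPM in Lag3-deficient libraries, against 210, 354 and 194 CPM in Wt libraries. No pair of groups was free of overlap in either the genotype or the tissue comparison. The genotype difference was -0.12 log2 in islets (95% interval -1.14 to 0.90) and -0.20 in NDL (-1.22 to 0.82). The islet against NDL difference over both genotypes was -0.70 ± 0.35 (95% interval -1.43 to 0.02, limma adjusted p = 0.433). Per kilobase, Foxp3 stood at 346 ± 103% of Ikzf1 in Lag3-deficient and 338 ± 104% in Wt islets, and at 295 ± 99.2% in Lag3-deficient and 291 ± 43.0% in Wt NDL (SD, n = 3 each). These ratios overlapped between all 4 groups.

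Aiolos had its highest mean in Lag3-deficient islets and its lowest in Lag3-deficient NDL. Ikzf3 (chr11:98464902-98546031, minus strand) had 221, 66.9 and 145 CPM in Lag3-deficient islet libraries, against 70.4, 147 and 78.8 CPM in Wt islets. In NDL it had 58.2, 46.5 and 4.97 CPM in Lag3-deficient libraries, against 37.9, 160 and 124 CPM in Wt libraries. The 3 Lag3-deficient islet libraries lay above the 3 Lag3-deficient NDL libraries, of which library 1b was far below the other two, and all other pairs of groups compared overlapped. Among Lag3-deficient Tregs the islet against NDL difference was 2.34 ± 0.81 log2 (95% interval 0.65 to 4.03, limma adjusted p = 0.358), and it was 1.30 without library 1b of the Lag3-deficient NDL. In Wt Tregs it was 0.04 (95% interval -1.65 to 1.73). The genotype difference was 0.46 log2 in islets (95% interval -1.23 to 2.15), where it was 0.11 without Lag3-deficient islet library 1a and 0.92 without library 2. It was -1.85 ± 0.81 in NDL (95% interval -3.54 to -0.16, limma adjusted p = 1), and -0.80 without Lag3-deficient NDL library 1b. The difference between these genotype effects was 2.31 ± 1.15 (adjusted p = 0.998), and 1.27 without that library.

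The ratio of Aiolos to Ikaros separated the islet groups, as did that of Eos to Helios given above (2.48 against 2.22% at the nearest). How many pairs of genes separate these groups in this way was not counted. Per kilobase, Ikzf3 was at 72.9, 53.9 and 66.1% of Ikzf1 in Lag3-deficient islet libraries, against 36.9, 44.2 and 47.1% in Wt islets. In NDL it was at 11.7, 17.6 and 1.99% in Lag3-deficient libraries, against 11.9, 29.8 and 42.1% in Wt libraries. The 3 Lag3-deficient islet libraries had the highest ratios of all 12 and did not overlap the Wt islet libraries. Of 6 ratios computed, this one was singled out after its values were seen, and 3 against 3 libraries cannot give an exact two-sided permutation p below 0.1. The 2 genes share a run of at least 25 bases, and a read lying within it could not be assigned to one of them.

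Pegasus was the most variable member. Ikzf5 (chr7:131388652-131410521, minus strand) had 38.2, 1.49 and 25.3 CPM in Lag3-deficient islet libraries, against 12.7, 32.8 and 30.8 CPM in Wt islets. In NDL it had 41.6, 21.2 and 0.233 CPM in Lag3-deficient libraries, against 37.9, 20.2 and 86.0 CPM in Wt libraries. One Lag3-deficient library in each tissue was near 0, and the groups overlapped in all comparisons. The value in Lag3-deficient islet 2 corresponded to 7 reads before rescaling. The genotype difference was -0.84 log2 in islets (95% interval -3.63 to 1.95) and -1.98 ± 1.34 in NDL, where it was -0.43 without Lag3-deficient NDL library 1b. Pegasus levels are uncertain: exons of Pstk, on the opposite strand, cover 81.3% of its exon bases (4652 of 5721), and the strand setting of the counting is not given. Pstk had 0.0735, 53.5 and 24.4 CPM in Lag3-deficient islet libraries, against 10.2, 33.1 and 40.8 CPM in Wt islets. In NDL it had 38.9, 28.5 and 95.5 CPM in Lag3-deficient libraries, against 38.6, 58.4 and 72.9 CPM in Wt libraries. How reads in the shared exon bases were assigned was not tested.

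**Figure D4:**
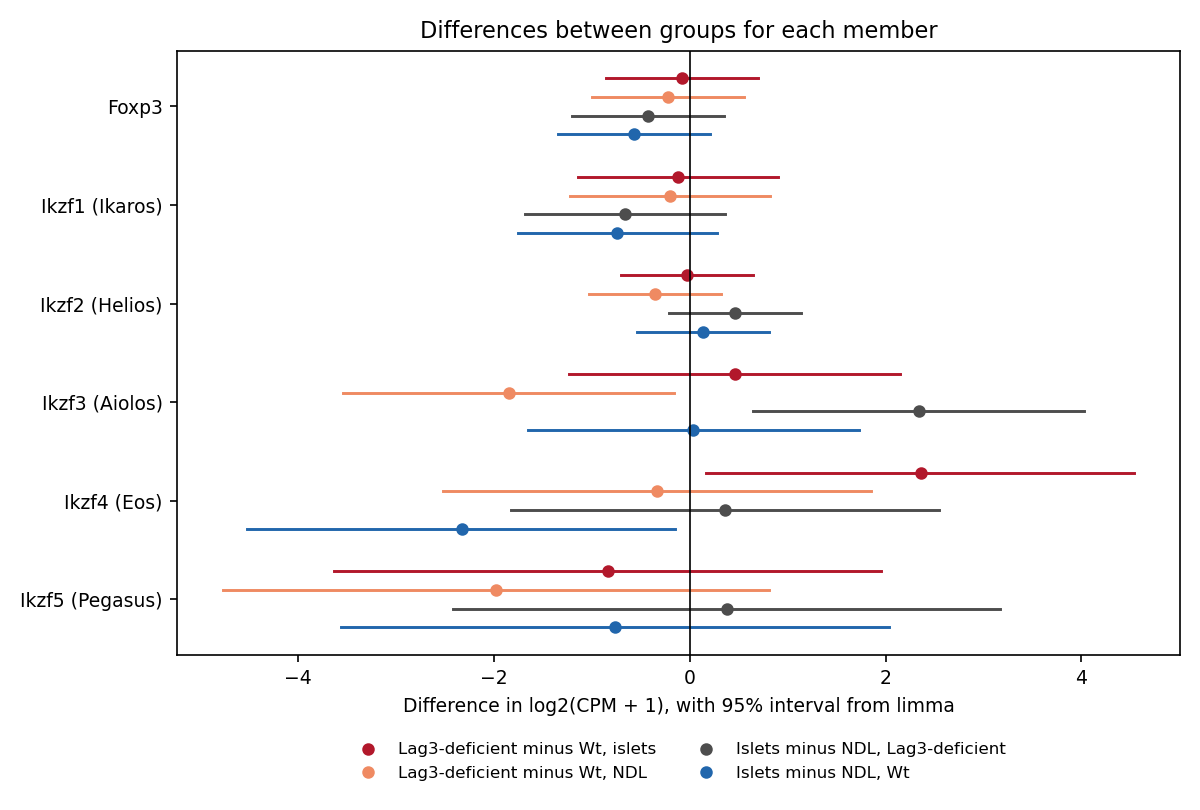
Difference in log2(CPM + 1) of each gene between groups, as points with the 95% interval from limma (3 against 3 libraries). The intervals of Foxp3, Ikaros and Helios all include 0, as do those of Pegasus, and the intervals of Eos and Aiolos that exclude 0 did not pass the threshold after adjustment over all genes.

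Counted by comparison, 0 of the 6 genes were called between genotypes in islets, where 0% of all tested genes were called (limma, adjusted p under 0.05), and 1, Ikzf4, had an unadjusted p under 0.05, against 5.49% of all tested genes. In NDL 0 of 6 were called, against 0% of all genes, and 1, Ikzf3, had an unadjusted p under 0.05, against 2.89%. Averaged over both tissues 0 of 6 were called and 0 of 6 had an unadjusted p under 0.05, against 0% and 3.68%. Between islets and NDL, 0 of 6 were called in Lag3-deficient Tregs, against 0.175% of all genes, and 1, Ikzf3, had an unadjusted p under 0.05, against 9.16%. In Wt Tregs 0 of 6 were called, against 0.221%, and 1, Ikzf4, had an unadjusted p under 0.05, against 7.65%. Averaged over both genotypes 0 of 6 were called, against 1.22%, and 0 of 6 had an unadjusted p under 0.05, against 11.9%. For the difference between the genotype effects the counts were 0 of 6 at either threshold, against 0% and 4.09%. With voom weights, likewise 0 of 6 were called in each of the 7 comparisons. Of all 10868 tested genes, 57 were then called between islets and NDL in Wt Tregs, 25 in Lag3-deficient Tregs, 175 averaged over genotypes and 0 elsewhere. The unadjusted count was 1 of 6 (Ikzf3) between islets and NDL in Lag3-deficient Tregs, against 1049 of all tested genes. It was 2 of 6 (Foxp3 and Ikzf1) averaged over genotypes, against 1435, and 0 of 6 elsewhere, against 314 to 884.

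Groups without overlap were as follows. Between genotypes in islets, 1 of 6 genes (Ikzf4) was higher in every Lag3-deficient library, against 4.20% of all tested genes, and 0 of 6 were lower in every one, against 5.21%. In NDL the counts were 0 of 6 higher and 0 of 6 lower, against 4.32% and 3.61%. Between islets and NDL, 2 of 6 (Ikzf2 and Ikzf3) were higher in every islet library among Lag3-deficient Tregs, against 6.17%, and 0 of 6 lower, against 7.21%. Among Wt Tregs 2 of 6 (Foxp3 and Ikzf4) were lower in every islet library, against 6.22%, and 0 of 6 higher, against 8.03%. The Lag3-deficient and the Wt comparison thus had no gene in common among these, and that difference was tested only through the genotype effects given above.

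The genes whose pattern over the 12 libraries was most like that of each member were taken by the smallest root mean square difference between centred log2 levels, among 7125 genes. For Foxp3 these were Paip2 (0.246), Pitpnc1 (0.271) and Smc4 (0.280 log2 units). For Ikzf1 they were Lasp1 (0.314), S1pr1 (0.323), the receptor by which T cells leave lymph nodes, and Selplg (0.323), a selectin ligand, with Foxp3 the fourth at 0.333. Seen from Foxp3, Ikzf1 was the 13th. For Ikzf2 they included the ribosomal protein gene Rplp0 (0.184) and the ribosome-associated Gnb2l1 (0.187). A gene of constant level would lie at 0.275 from Ikzf2 and at 0.396 from Foxp3. Genes that vary little thus lie close to these members, whatever their pattern. Ikzf3 was nearest to Nudt4 (0.492), Fam111a (0.553) and Ugp2 (0.561), and Ikzf4 to Ints1 (0.760), Bag5 (0.825) and Gpd2 (0.852). Ikzf5 was nearest to Nup107 (0.598), Pck2 (0.611) and 1110001A16Rik (0.663). By Pearson correlation in place of this measure, 0 of the 3 names stayed for Foxp3, Ikzf1 and Ikzf2, 1 for Ikzf3 (Nudt4) and for Ikzf4 (Ints1), and 2 for Ikzf5 (Nup107 and Pck2), so the names depend on the measure.

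Genes that act with Foxp3 were counted from 7 lists. Between genotypes in islets, 0 tested members of any list were called. Among regulators of the Foxp3 locus the smallest p belonged to Nfatc2, a calcium-dependent activator of Foxp3 and a member of the partner list too, with 64.6 ± 48.9 CPM in Lag3-deficient and 9.67 ± 5.89 CPM in Wt islets (2.44 ± 1.18 log2, adjusted p = 0.899). It was followed by Satb1, a chromatin organizer (0.55), and Foxo1, a forkhead factor of naive T cells (0.45 log2). The median of its 16 tested members was 0.06, against -0.08 over all tested genes. Among the DNA methylation genes Uhrf1, which recruits Dnmt1, had 17.5 ± 15.1 CPM in Lag3-deficient and 62.3 ± 26.4 CPM in Wt islets (-2.01 ± 0.98, adjusted p = 0.899), followed by Dnmt1 (-1.08) and Dnmt3b (-1.23 log2). Among Foxp3 protein partners and modifiers Usp7, a deubiquitinase of Foxp3, differed by 0.71 and Foxp1 by 0.61 log2.

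Corepressors that Ikaros family proteins bind were likewise uncalled. Hdac2, a histone deacetylase, had 232 ± 113 CPM in Lag3-deficient and 81.2 ± 27.1 CPM in Wt islets (1.41 ± 0.64 log2, adjusted p = 0.884), followed by Rbbp4 (0.90) and Gatad2a (-0.96). In the cereblon ubiquitin ligase, which degrades Ikaros and Aiolos in human cells exposed to thalidomide-type drugs, Cul4b had 77.9 ± 84.5 CPM in Lag3-deficient and 192 ± 99.3 CPM in Wt islets (-2.23 ± 0.92, adjusted p = 0.877), followed by Rbx1 (-0.48) and Crbn (0.54). Of the Treg signature of genes higher with Foxp3, whose members include Ikzf2 and Ikzf4, 13 of 20 tested differences were positive in islets with a median of 0.17, while in NDL 5 of 20 were positive with a median of -0.15. Averaged over both tissues 10 of 20 were positive with a median of 0.014. Beside Ikzf4, its smallest p belonged to Gpr83 and Plagl1. Gpr83 had 57.6 ± 25.8 CPM in Lag3-deficient and 28.2 ± 6.91 CPM in Wt islets (0.91 log2). Plagl1 differed by -0.81 log2 near the floor, at 0.128 to 0.223 CPM in Lag3-deficient and 0.129 to 3.27 CPM in Wt islets. Of genes lower with Foxp3, 3 of 9 differences were positive in islets with a median of -0.64, and in NDL 3 of 9 with a median of -0.71. Averaged over both tissues 1 of 9 was positive with a median of -0.61. Over all tested genes the median was -0.08 in islets, -0.01 in NDL and -0.06 averaged. Dapl1 had 0.0459 ± 0.0400 CPM in Lag3-deficient and 7.42 ± 3.56 CPM in Wt islets (-2.90 ± 1.19, adjusted p = 0.877), Actn1 differed by -2.28 ± 0.94, and Pde3b was listed at 0 in all 3 Lag3-deficient islet libraries. In the NDL genotype comparison 0 members of any list were called.

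Between islets and NDL, averaged over both genotypes, 4 list genes rose and 2 fell: 2 of 16 tested locus regulators and 1 of 16 partners rose, 1 of 20 signature genes rose and 1 fell, and 1 of 9 genes lower with Foxp3 fell, against 1.22% of all tested genes called. Of the corepressors 0 of 16 were called. Ctla4, a coinhibitory receptor and Foxp3 target, rose to 2419 ± 475 CPM in islets, against 388 ± 120 CPM in NDL (SD, n = 6 each, 2.68 ± 0.22 log2, limma adjusted p = 4.32e-07). It was also the 1 list gene called in each genotype, where it rose by 3.14 ± 0.32 log2 in Lag3-deficient (adjusted p = 1.42e-05) and 2.21 ± 0.32 in Wt Tregs (adjusted p = 0.00126). Hif1a, the hypoxia factor that binds Foxp3, rose to 352 ± 74.2 CPM in islets, against 114 ± 21.7 CPM in NDL (1.61 ± 0.30 log2, adjusted p = 0.00736). Nr4a2 and Nr4a1 are nuclear receptors induced by T cell receptor signals that bind the Foxp3 locus. They rose by 4.92 ± 0.92 (limma adjusted p = 0.00888) and 2.30 ± 0.52 log2 (adjusted p = 0.0309). Nr4a2 had 18.3 to 144 CPM in islets and 0 to 7.84 CPM in NDL, so its difference rests on NDL values near the floor. That difference ran from 3.23 to 7.88 log2 over the 23 alternatives. Nr4a1 had 57.1 to 129 CPM in islets and 7.42 to 23.5 CPM in NDL without overlap, but its call was kept under 9 of 23 alternatives only. Gpr83, an orphan receptor of the Treg signature, had 42.9 ± 23.3 CPM in islets, against 160 ± 32.2 CPM in NDL, and fell by 2.02 log2 (adjusted p = 0.0129). Igfbp4, lower with Foxp3, had 3.26 ± 4.91 CPM in islets, against 65.2 ± 36.7 CPM in NDL, and fell by 4.48 log2 (adjusted p = 0.0151). The calls of Hif1a and Gpr83 were lost without the 4 libraries 1b and with a fold threshold of 1.5. The call of Igfbp4 was lost under 4 alternatives, among them leaving out Lag3-deficient NDL library 1a or Wt NDL library 1b. The summed B cell, exocrine and endocrine markers given above were likewise higher in every islet library than in every NDL library, while the myeloid and the CD8 and NK sums overlapped. Their part in these differences was not tested.

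The other list genes with small p in this comparison did not pass the threshold. Satb1 had 181 ± 93.8 CPM in islets, against 349 ± 90.1 CPM in NDL (-1.01 log2, adjusted p = 0.15), and Foxp1 differed by -0.93 and Irf4, a factor of effector Tregs, by 1.30 ± 0.43 log2 (adjusted p = 0.192). Hdac1 differed by -1.06 ± 0.37 (adjusted p = 0.225), Sin3a by 1.24 and Mta3 by 1.49 log2 among the corepressors. Nt5e, the ectonucleotidase CD73, differed by 1.15 ± 0.41 (adjusted p = 0.24) and Actn1 by -2.42 ± 0.67 (adjusted p = 0.0966). Of the DNA methylation genes, 0 of 8 were called, with the smallest p for Tet3 (-1.01), Dnmt3b (-0.95) and Uhrf1 (0.78). Of the cereblon ligase, 0 of 5 were called, with Rbx1 at -0.44, Cul4a at 1.60 and Crbn at -1.02 log2.

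Of the 18 proliferation genes, 5 were called higher in islets than in NDL over both genotypes (limma adjusted p under 0.05; 1.22% of all genes tested were called there). In each genotype alone 0 of 18 were called, with positive differences in 18 of 18 in Lag3-deficient and 16 of 18 in Wt Tregs. Their levels summed to 2597 to 3331 CPM in Lag3-deficient and 2609 to 3875 CPM in Wt islets, and to 793 to 1444 CPM in Lag3-deficient and 945 to 1510 CPM in Wt NDL. Between genotypes in islets 0 of the 18 were called, 9 differences were positive and their median was -0.06 log2. Among the Lag3-deficient islets, library 1a had the lowest sum, the lowest Eos and the highest Aiolos level.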

How the data were processed

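RNA of Tregs was sequenced in 12 mouse libraries. The submitters' processing notes name TopHat2, DESeq2 and the build mm10, with neither version nor role. The counting annotation is not given in the sources used here. The deposited tables hold a signal: the first holds counts rescaled by the authors to nearly equal column totals, to whole numbers; the second holds 10317 genes with nearly equal distributions in all columns and served as an alternative. Rescaling hides the sampling noise of shallow libraries, so no counting intervals are given.

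Values were converted to CPM, with scaling by trimmed means of log ratios over the tested genes (30% of ratios and 5% of levels trimmed). Scaling over all genes of the table gave Lag3-deficient islet 2 a factor of 1.19, against 0.878 over tested genes and 0.782 by median ratios (RLE), and was kept as an alternative. With limma 3.58.1 in R 4.3.3, log2(CPM + 1) was fitted with a mean-variance trend in 1 model of the 4 groups (8 residual degrees of freedom), for 10868 of the 21708 genes above 0, those with 10 or more rescaled counts in 3 or more libraries. This scale understates changes of low genes. P-values were Benjamini-Hochberg adjusted over all tested genes in each of 7 comparisons, with a threshold of 0.05, and 95% intervals are unadjusted. The fit was run on simulated data whose set scatter was smaller than the median residual SD of these data (1.24 log2 units). That run therefore does not show how the fit performs on genes as variable as these. Deviations from the group means correlated at -0.0894 to 0.161 between libraries with the same number (1a, 2 or 1b), with a median of 0.0253 over 18 pairs. Between libraries with different numbers they correlated at -0.142 to 0.0977, with a median of -0.0072 over 36 pairs. The labels name no pairs, so the main fit used none, and a block by number was fitted as an alternative. Whether libraries of a number share a batch was not tested. Gene models came from GENCODE (GRCm38). Beside the 6 genes and Lag3, the text names every called member of 7 lists, the 3 with the smallest p in 2 comparisons, and the 3 genes most like each member; a few of these items are not reported here. The members, lists and rules were chosen with earlier results of these data known.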

Additional observations from a re-analysis of the deposited data

How the results depend on the processing

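Of the 6 genes, 0 were called in each of the 7 comparisons under all 23 alternatives, replicate block included, and the lowest adjusted p of any member was 0.253 (Foxp3, islets against NDL over both genotypes, without the 4 libraries 1b). In 42 results, 910 of 966 values under alternatives kept their direction and stayed short of the threshold, and 56 reversed; the cause was not tested. The difference between genotype effects reversed for Foxp3 and Ikzf1 with column totals (-0.021 and -0.084), without the filter on low values and with trimmed means over all genes (-0.020 and -0.081 in both), and with the second table (-0.060 and -0.12). The fit without the filter, here and below, also took its trimmed means over all genes above 0. It thus changed the scaling as well as the filter. Ikzf2 between genotypes in islets was 0.041 with RLE scaling, and Ikzf3 between Wt islets and NDL was -0.0091 with column totals. Without the 4 libraries 1b, which held more Rn45s than the other 8, an alternative added after the data were seen, as were the fold threshold of 1.5, the scaling over all genes and the coding transcript length, the genotype difference was 0.11 for Foxp3 in islets, 0.0025 for Foxp3 over both tissues and 0.11 for Ikzf5 in NDL. Then the islet against NDL difference in Lag3-deficient Tregs was -0.37 for Ikzf4 and -1.62 for Ikzf5, and the difference between genotype effects -0.12 for Ikzf1 and -1.18 for Ikzf5.

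Leaving out 1 library at a time, the genotype difference in islets ran from -0.25 to 0.022 for Foxp3, -0.38 to 0.21 for Ikzf1, -0.13 to 0.084 for Ikzf2, 0.11 to 0.92 for Ikzf3 and -1.58 to 0.38 for Ikzf5. In NDL it ran from -0.38 to 0.056 for Foxp3, -0.50 to 0.072 for Ikzf1 and -0.91 to 0.17 for Ikzf4, and over both tissues from -0.29 to 0.015 for Ikzf1. The islet against NDL difference ran from -0.083 to 0.27 for Ikzf2 and -0.61 to 0.44 for Ikzf3 in Wt Tregs. In Lag3-deficient Tregs it ran from -0.33 to 1.41 for Ikzf4 and -1.18 to 1.58 for Ikzf5, and over both genotypes from -0.98 to 0.40 for Ikzf5. The difference between genotype effects ran from -0.12 to 0.32 for Foxp3, -0.19 to 0.42 for Ikzf1 and -0.40 to 2.36 for Ikzf5.

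With the replicate number as a block, 0 of 6 members were called in each comparison, and the count over all genes was 15 for Wt islets against NDL, against 24 without it. The numbers were not taken as pairs in the main fit, since the labels name none. Of 18 same-number pairs, 2 correlated above 0.1. On average 11 of 12 libraries correlated more with their own number, a hint from the data and not the design. Over all genes, the count for Wt islets against NDL was 11 without the filter, 57 with voom, 10 with the fold threshold, 10 without the libraries 1b and 9 to 30 with 1 library left out. In Lag3-deficient Tregs the count was 19, and 7 without the filter, 10 with the fold threshold, 31 with the second table, 32 without the libraries 1b and 11 to 38 with 1 library left out. Over both genotypes it was 133, and 40, 44 and 55 without the filter, with the fold threshold and without the libraries 1b, and 71 to 122 with 1 left out. Between genotypes in islets it was 0, and up to 5 with 1 left out (Lag3-deficient islet 1b). Of the list genes, Ctla4 and Nr4a2 kept their calls under all 23 alternatives, Hif1a and Gpr83 under 21, Igfbp4 under 19 and Nr4a1 under 9. The median over all genes between genotypes in islets was -0.08, and -0.22 with scaling over all genes. Between islets and NDL in Lag3-deficient Tregs it was -0.07, and -0.26 with column totals. Depth is known for 2 libraries, so the counting error of low Ikzf4 and Ikzf5 values is unknown in the other 10.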
